A study of Mus musculus with 7 samples.

Results

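The EGF receptor (ErbB) family and its ligands were followed in endpoint mouse gliomas through 9 genes, chosen by symbol. These were the 4 receptors Egfr, Erbb2, Erbb3 and Erbb4, the neuregulins Nrg1, Nrg2 and Nrg3, and the EGF receptor ligands Hbegf and Tgfa. All 9 were present among the 19257 genes of the table of normalized counts, and all 9 passed the filter on low values (a mean of at least 10 normalized counts over the libraries). Receptors of this family pair on binding a ligand and signal through their kinase domains to the RAS-MAPK and PI3K pathways. EGFR binds TGF-alpha and HB-EGF, ERBB3 and ERBB4 bind neuregulins, and ERBB2, which has no known ligand of its own, serves as a partner for the others. In brain, EGFR is known for progenitor growth and as a frequently amplified gene of human glioblastoma, ERBB3 for the oligodendrocyte lineage, and ERBB4 for interneurons.

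Tumors of both groups were induced by in utero electroporation of a construct with Cas9 and guides that target tumor suppressors (including Trp53 and Nf1), on CD-1 and C57BL/6 backgrounds. The 3xCR tumors (3 libraries, replicates 2, 3 and 4) carried this construct, and the GPC6 tumors (4 libraries, replicates 1 to 4) also carried a piggyBac transposon that overexpressed the glypican GPC6. A GFP reporter in a piggyBac transposon marked the electroporated cells. The guides are shared by both groups, and no brain without guides was among the libraries. Tumor tissue was taken at endpoint under fluorescence microscopy, and age and sex are not given for each library. Bulk RNA-Seq of such tissue reads tumor cells and the brain, immune and vessel cells between them as 1 pool, and fewer cells of a type cannot be told apart from less RNA per cell.

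The libraries held 7197692 to 18879762 reads on genes, and their depth did not differ between the groups beyond the spread (two-sided exact permutation test, p = 0.457, a test that cannot go below 0.057 with groups of 3 and 4). Values of a gene are listed in order of replicate number, 2, 3 and 4 for 3xCR and 1 to 4 for GPC6. Gpc6 had 217, 226 and 126 normalized counts in the 3xCR libraries and 675, 263, 3434 and 5084 in the GPC6 tumors. The library labelled GPC6 replicate 2 therefore lay close to the 3xCR level, and values without it are given where they change a result. Markers of neurons differed widely between libraries. The sum of 15 pan-neuronal markers ranged from 8486 to 14867 normalized counts in the 3xCR libraries and from 10795 to 77732 in the GPC6 libraries, and by mean log2 value 15 of the 15 were higher with GPC6 (median log2 fold change 1.63). The median over all 14782 genes tested was -0.019.

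The stretches before the start sites of 3 members on which the results turn are shown here. These are Egfr and Tgfa, a receptor and its ligand whose levels lay at opposite ends in the same libraries, and Erbb4, the member whose groups did not overlap. Each holds the 250 bases before the start in RefSeq's annotation (GRCm38.p6), written 5′ to 3′ on the strand of the gene. Capitals mark a GC box, GGGCGG on either strand. The stretches lie at chr11:16751953-16752202 (Egfr, plus strand), chr6:86194972-86195221 (Tgfa, plus strand) and chr1:69108060-69108309 (Erbb4, minus strand).
Egfr: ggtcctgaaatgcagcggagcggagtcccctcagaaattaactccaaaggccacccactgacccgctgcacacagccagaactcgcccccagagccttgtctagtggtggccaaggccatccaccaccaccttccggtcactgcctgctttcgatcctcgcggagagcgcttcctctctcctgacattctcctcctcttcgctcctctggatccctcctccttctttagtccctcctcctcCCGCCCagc
Tgfa: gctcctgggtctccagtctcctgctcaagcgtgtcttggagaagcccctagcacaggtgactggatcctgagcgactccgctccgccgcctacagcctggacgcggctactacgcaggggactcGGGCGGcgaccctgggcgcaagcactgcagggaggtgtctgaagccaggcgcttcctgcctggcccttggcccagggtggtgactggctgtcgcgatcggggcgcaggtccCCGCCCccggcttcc
Erbb4: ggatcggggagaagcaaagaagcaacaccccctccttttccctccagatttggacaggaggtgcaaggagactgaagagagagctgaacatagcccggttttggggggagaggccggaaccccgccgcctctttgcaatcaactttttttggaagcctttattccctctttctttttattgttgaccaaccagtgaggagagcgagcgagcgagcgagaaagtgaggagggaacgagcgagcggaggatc
Of 32851 such stretches over all genes, 32.7% held at least 1 GC box. Egfr had 1, Tgfa had 2 and Erbb4 had 0, and none of these 3 stretches held TATAAA on either strand, which 12.4% of all stretches did. Entries were found for 5 of the 9 members, and the stretches of Erbb2 and Nrg3, not shown, each held 0 GC boxes and 0 copies of TATAAA.

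Compared between GPC6 and 3xCR tumors, no member passed the main test after adjustment over the genes tested. Gpc6 itself did not pass either (log2 fold change 2.85, limma unadjusted p = 0.020, adjusted p = 0.730), although its groups did not overlap. The smallest adjusted p over all genes was 0.730, so a lack of calls here does not show that a member was unchanged. At an adjusted p under 0.05 limma called 0 of the 9 members and 0.00% of all genes, and at an unadjusted p under 0.05 it called 1 of the 9, Erbb4, against 4.66% of all genes. By mean log2 value, 4 members lay higher in GPC6 tumors (Egfr, Erbb4, Nrg2 and Nrg3) and 5 lower, with a median log2 fold change of -0.34 over the 9. The groups did not overlap in 1 of the 9, again Erbb4, where 6.32% of all genes tested had groups apart, 2.80% with GPC6 higher and 3.52% with GPC6 lower. A share of 1 in 9 is 1 gene, and nothing is read from it about the family.

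**Figure D1:**
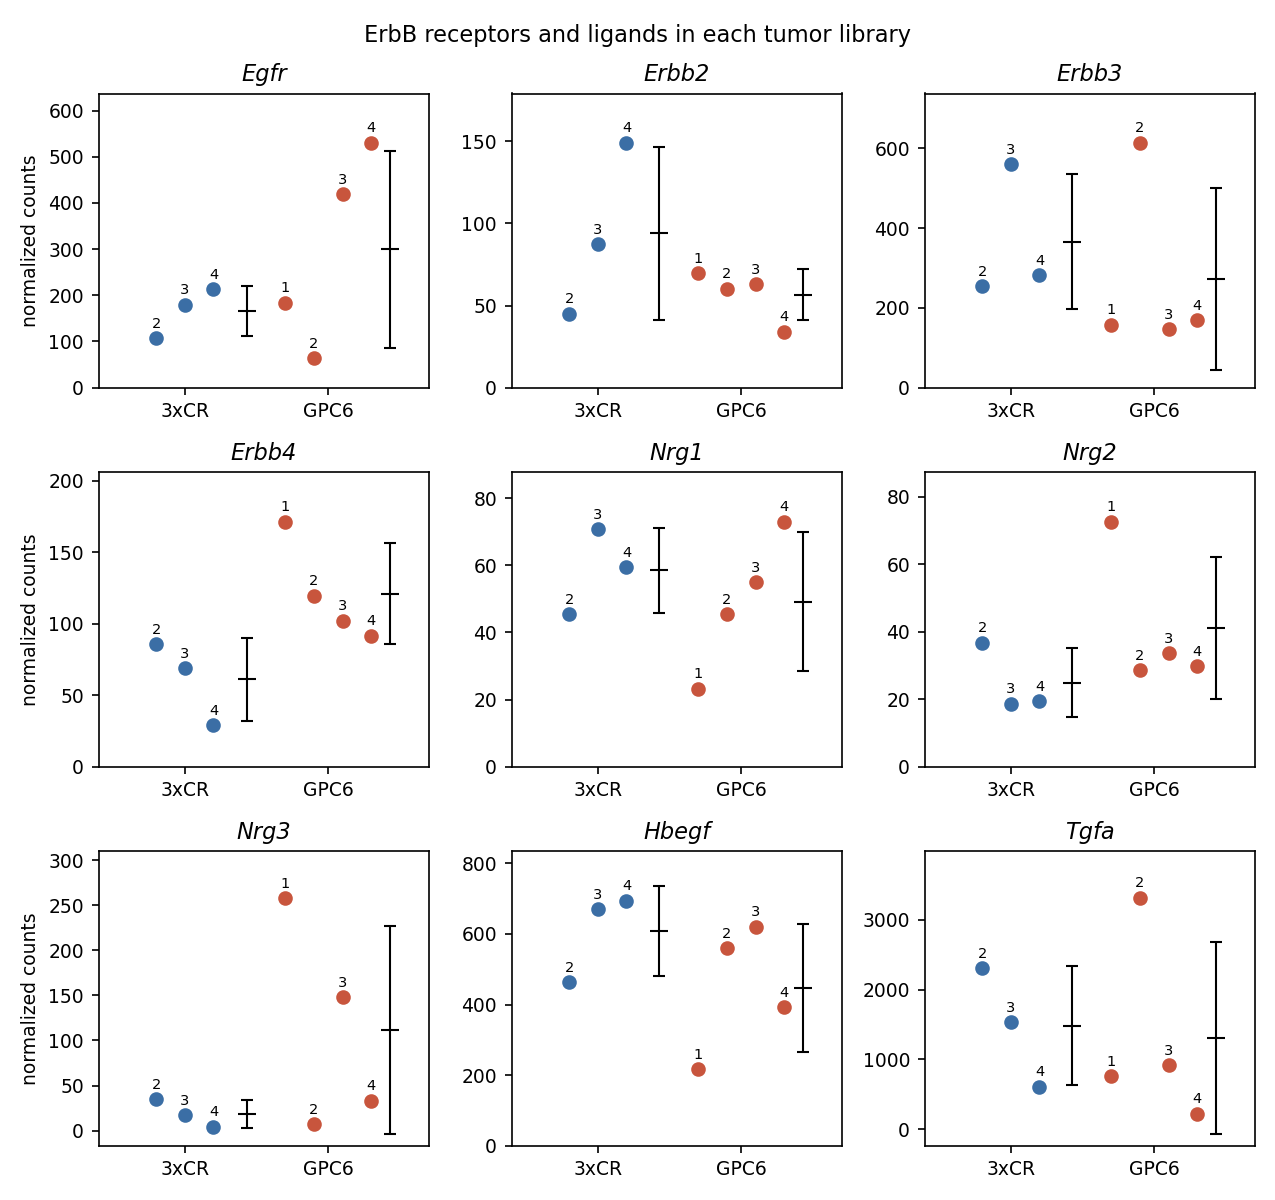
Normalized counts (vertical axes, linear) of the 9 members in each library, with 3xCR tumors in blue, GPC6 tumors in red and the replicate number above each point. Black bars give the mean and SD of each group (n = 3 and n = 4), and only Erbb4 has its 4 GPC6 points, from 91.6 to 172, above all 3xCR points, from 29.0 to 85.5.

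Erbb4, the neuregulin receptor, lies on chromosome 1 of GRCm38 from 68032186 to 69108059. It had 85.5, 68.8 and 29.0 normalized counts in the 3xCR libraries and 172, 119.5, 102 and 91.6 in the GPC6 tumors. The lowest GPC6 value exceeded the highest of 3xCR, although GPC6 replicate 4 was only slightly above 3xCR replicate 2. Group means were 61.1 ± 29.0 (SD, n = 3) and 121 ± 35.5 (SD, n = 4), a log2 fold change of 1.07 with a standard error of 0.44 and a 95% interval from 0.041 to 2.10 by limma (unadjusted p = 0.043, adjusted p = 0.730). The exact permutation test of its log2 values gave p = 0.057, the lowest p possible here. The unadjusted p stayed under 0.05 without 3xCR replicate 2 or GPC6 replicate 4 (0.026 and 0.045) and exceeded it when any other single library was left out, up to 0.144 without 3xCR replicate 4, where the log2 fold change was 0.61. Markers of inhibitory neurons, cells in which Erbb4 is abundant, followed it only in part. Their 12 genes summed to 1366, 659 and 352 normalized counts in the 3xCR libraries and to 14262, 1165, 5439 and 1787 in the GPC6 tumors, and by mean log2 value 12 of 12 were higher with GPC6 (Vip, Dlx1 and Dlx5 were at 0 in at least 1 library). GPC6 replicate 2 stood out in that its Erbb4 lay above that of 3xCR replicate 2 while its marker sum lay below. It also had more Erbb4 than GPC6 replicates 3 and 4 but the lowest marker sum of the GPC6 tumors. Excitatory neuron markers (10 genes) summed to 4793, 2266 and 535 normalized counts in 3xCR and to 43009, 1795, 25777 and 5126 in GPC6 tumors. By mean log2 value 9 of these 10 were higher with GPC6 (Neurod6 and Tbr1 were at 0 in at least 1 library). The part of inhibitory or other neurons in the Erbb4 result was not tested.

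Egfr on chromosome 11 (16752203 to 16918158) had the widest spread of the receptors, by the ratio of its highest to its lowest library. It had 107, 179.5 and 213 normalized counts in the 3xCR libraries and 184, 63.2, 419.6 and 531 in the GPC6 tumors. The GPC6 group thus held both the lowest library and the 2 highest, and the highest was 8.40 times the lowest. Means of 166 ± 54.1 (SD, n = 3) and 299 ± 214 (SD, n = 4) gave a log2 fold change of 0.50 (standard error 0.71, 95% interval -1.15 to 2.14, limma adjusted p = 0.846). Within the GPC6 group the order of Egfr over the libraries was that of Gpc6, with GPC6 replicate 2 lowest, then replicates 1, 3 and 4. This was noticed after the values were seen and rests on 4 libraries. It did not extend to 3xCR, where replicate 4 had the lowest Gpc6 and the highest Egfr, and GPC6 replicate 2 had more Gpc6 than each 3xCR library but less Egfr. The log2 fold change of Egfr moved with the library left out in both directions. It was 1.10 without GPC6 replicate 2 (limma unadjusted p = 0.054, adjusted p = 0.527), 0.088 without GPC6 replicate 4, 0.20 without GPC6 replicate 3 and 0.21 without 3xCR replicate 2. Adjusted p over the alternatives for Egfr ranged from 0.110 to 0.999.

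Erbb3, the neuregulin receptor that depends on its partners for kinase activity, lies on chromosome 10 from 128567523 to 128589652. Its normalized counts were 255, 560.0 and 282 in the 3xCR libraries and 158, 615, 147 and 169.8 in the GPC6 tumors. GPC6 replicates 1, 3 and 4 lay below all 3xCR libraries, while GPC6 replicate 2 lay above all of them. The log2 fold change over all libraries was -0.62 (standard error 0.55, 95% interval -1.91 to 0.66, limma adjusted p = 0.759). Without GPC6 replicate 2 the groups did not overlap and the log2 fold change of Erbb3 was -1.11 (limma unadjusted p = 0.017, adjusted p = 0.526). It was -0.27 without 3xCR replicate 3 (unadjusted p = 0.675) and -0.43 without GPC6 replicate 3. In the fit with a weight for each library it reached an adjusted p of 0.031 (log2 fold change -1.58), the lowest over the alternatives, which went up to 0.999. That fit called 2 of the 9 members at an adjusted p under 0.05, Erbb3 and Nrg3, and 13.3% of all genes, and at an unadjusted p under 0.05 it called 5 of the 9 and 34.5% of all genes. Oligodendrocyte markers (11 genes) summed to 68080 to 86024 normalized counts in the 3xCR libraries and to 107305, 114635, 25808 and 16141 in GPC6 replicates 1, 2, 3 and 4, with 10 of 11 lower in GPC6 tumors by mean log2 value and none at 0. GPC6 replicates 2, 3 and 4 were high or low in both, whereas GPC6 replicate 1 had a high marker sum and low Erbb3. Oligodendrocyte precursor markers (10 genes) summed to 71813, 45569 and 21581 normalized counts in 3xCR and to 19659, 95642, 34911.5 and 37631 in GPC6 tumors. Their sum was highest in GPC6 replicate 2, as was Erbb3, and lowest in GPC6 replicate 1. However, 3xCR replicate 4 had a lower precursor sum than GPC6 replicates 3 and 4 but more Erbb3. The part of oligodendrocytes or their precursors in the Erbb3 values was not tested.

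Erbb2, the partner receptor, lies on chromosome 11 from 98412470 to 98437716. It had 44.9, 87.4 and 149 normalized counts in the 3xCR libraries and 69.6, 60.3, 63.0 and 34.0 in the GPC6 tumors. Its log2 fold change was -0.61 (standard error 0.48, 95% interval -1.72 to 0.51, limma adjusted p = 0.745), and 3xCR replicate 4 was the highest library. That library also had the highest sum of 11 markers of mural cells and fibroblasts, 31360 normalized counts, where the other 3xCR libraries had 1049 and 2684 and the GPC6 libraries 941 to 3791. Of the 11, 9 had a lower mean log2 value with GPC6 and none was at 0. Mural cells and fibroblasts were not alone in this. 3xCR replicate 4 also had the highest sums for macrophages and monocytes (35113, next highest 11489), microglia (65568, next 46145) and endothelial cells (3391, next 3091). In the remaining marker lists it was not the highest. The part of any of these cell types in the Erbb2 value was not tested. Without 3xCR replicate 4 the log2 fold change of Erbb2 was -0.19, and without 3xCR replicate 2 it was -1.05 (limma unadjusted p = 0.062).

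**Figure D2:**
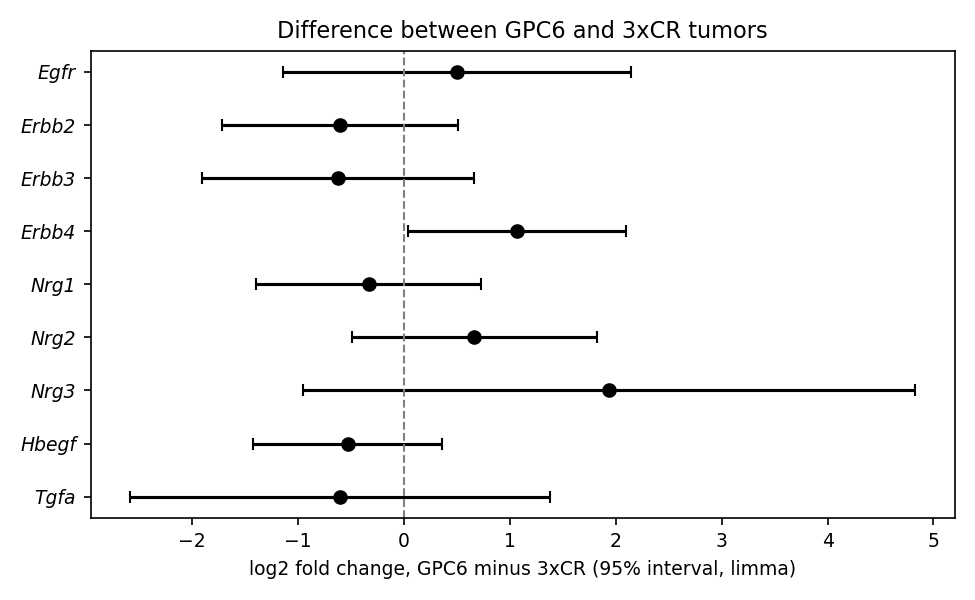
Difference between GPC6 and 3xCR tumors for each member, as the log2 fold change on log2(normalized count + 1) with its 95% interval from limma (3 against 4 libraries). The intervals of 8 members span 0, and that of Erbb4 starts at 0.041.

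Per length of exon, the receptors changed places between libraries. The comparison used normalized counts per kilobase of the exons in the GENCODE annotation. Erbb3 led the receptors in 5 of the 7 libraries with 37.6% to 79.2% of their summed level, and Egfr led in GPC6 replicates 3 and 4 with 45.3% and 52.7%, the 2 libraries of highest Gpc6. In the others Egfr took 4.33% (GPC6 replicate 2) to 23.3% (GPC6 replicate 1). The summed level of the 4 receptors ran from 67.4 to 131 normalized counts per kilobase in 3xCR tumors and from 69.7 to 129 in GPC6 tumors. Erbb4 took 2.43% to 10.3% of the receptor level in 3xCR tumors and 7.50% to 19.9% in GPC6 tumors.

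**Figure D3:**
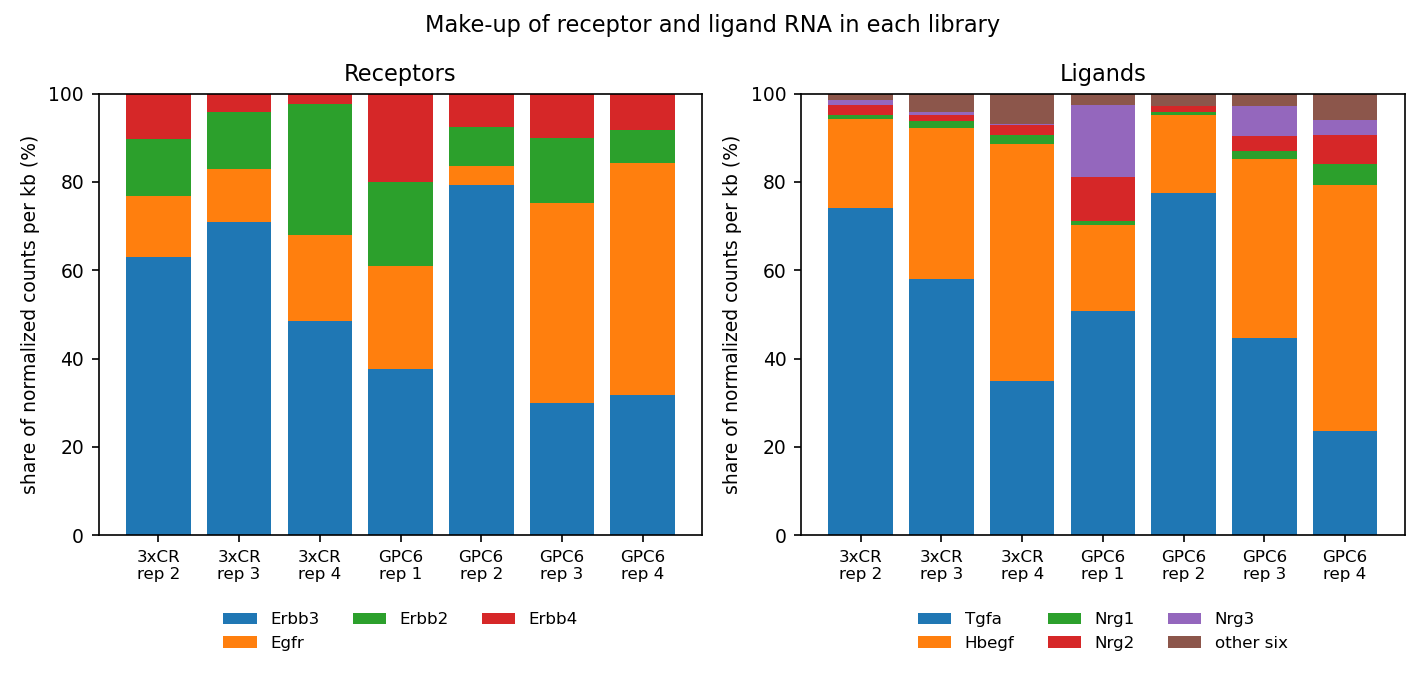
Shares (%) of each receptor in the 4 receptors (left) and of each ligand in 11 ligands (right), in normalized counts per kilobase of exon, 1 bar per library. Egfr has the widest receptor segment only in GPC6 replicates 3 and 4, and Tgfa and Hbegf together fill most of each ligand bar.

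Among the ligands, Tgfa, which encodes TGF-alpha, varied widely within both groups. On chromosome 6 (86195223 to 86275719), it had 2311, 1533 and 609 normalized counts in the 3xCR libraries and 764, 3318, 915 and 223 in the GPC6 tumors. The groups overlapped throughout and the extremes were both GPC6 libraries, 14.9 times apart. The log2 fold change was -0.61 (standard error 0.86, 95% interval -2.59 to 1.38, limma adjusted p = 0.844), and it was 0.034 without GPC6 replicate 4. It was -1.26 without GPC6 replicate 2 (unadjusted p = 0.106 by limma), -1.15 without 3xCR replicate 4 and -0.19 without 3xCR replicate 2. Tgfa and Egfr lay at opposite ends: GPC6 replicate 2 had the most Tgfa and the least Egfr, GPC6 replicate 4 the least Tgfa and the most Egfr, and the 3 libraries of highest Tgfa were the 3 of lowest Egfr. This too was noticed after the values were seen. The same 3 libraries, GPC6 replicate 2 and 3xCR replicates 2 and 3, had the highest sums of 10 oligodendrocyte precursor markers (95642, 71813 and 45569 normalized counts), against 19659 to 37631 in the other 4. The sums ranged from 21581 to 71813 in 3xCR and from 19659 to 95642 in GPC6 tumors, 7 of the 10 markers had a lower mean log2 value in GPC6 tumors and none was at 0. GPC6 replicate 4 had the least Tgfa but not the lowest marker sum (37631). The part of such cells in the Tgfa values was not tested.

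Hbegf, whose product HB-EGF binds heparan sulfate as well as EGFR and ERBB4, lies on chromosome 18 from 36504927 to 36515805. Its normalized counts were 463, 671 and 695 in the 3xCR libraries and 216, 560.2, 620.1 and 393 in the GPC6 tumors. The groups overlapped only through 3xCR replicate 2, the lowest of its group. The log2 fold change was -0.53 (standard error 0.39, 95% interval -1.42 to 0.36, limma adjusted p = 0.734). The highest library was 3.21 times the lowest. Without GPC6 replicate 1, the lowest library, the log2 fold change of Hbegf was -0.22, and without GPC6 replicate 3 it was -0.72. Per kilobase Tgfa lay above Hbegf in 5 of the 7 libraries, and Hbegf lay above Tgfa in 3xCR replicate 4 and GPC6 replicate 4.

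In mean level per kilobase, each neuregulin lay below Tgfa and Hbegf in both groups. Nrg3, a neuregulin of neurons that binds ERBB4, lies on chromosome 14 from 38368952 to 39473088. It had 34.5, 16.7 and 4.14 normalized counts in the 3xCR libraries and 258, 6.92, 148 and 32.9 in the GPC6 tumors. GPC6 replicates 1 and 3 stood far above all other libraries, and the remaining GPC6 libraries lay within the range of 3xCR. Nrg3 had the largest log2 fold change of the members, 1.94, but also the largest error (standard error 1.25, 95% interval -0.95 to 4.83, limma adjusted p = 0.730). The smallest value, in 3xCR replicate 4, was 3 reads. DESeq2 on the recovered reads gave 2.57 for Nrg3 at an unadjusted p of 0.016 and an adjusted p of 0.374, and it was 2.89 by limma without GPC6 replicate 2 (unadjusted p = 0.023, adjusted p = 0.526). The log2 fold change was smaller without 3xCR replicate 4 (1.18, unadjusted p = 0.424), GPC6 replicate 1 (1.21, unadjusted p = 0.338) or GPC6 replicate 3 (1.47). Library weights gave it an adjusted p of 0.041 (log2 fold change 2.60), and the alternatives for Nrg3 ranged from that value to 0.999. The sums of the pan-neuronal markers were 14867, 11576 and 8486 normalized counts in the 3xCR libraries and 77732, 10795, 42635 and 16700 in the GPC6 tumors, with no marker at 0. Ranked by this sum and by Nrg3 the 7 libraries had the same order except that 3xCR replicate 2 and GPC6 replicate 4 changed places. The part of neurons in the Nrg3 difference was not tested.

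**Figure D4:**
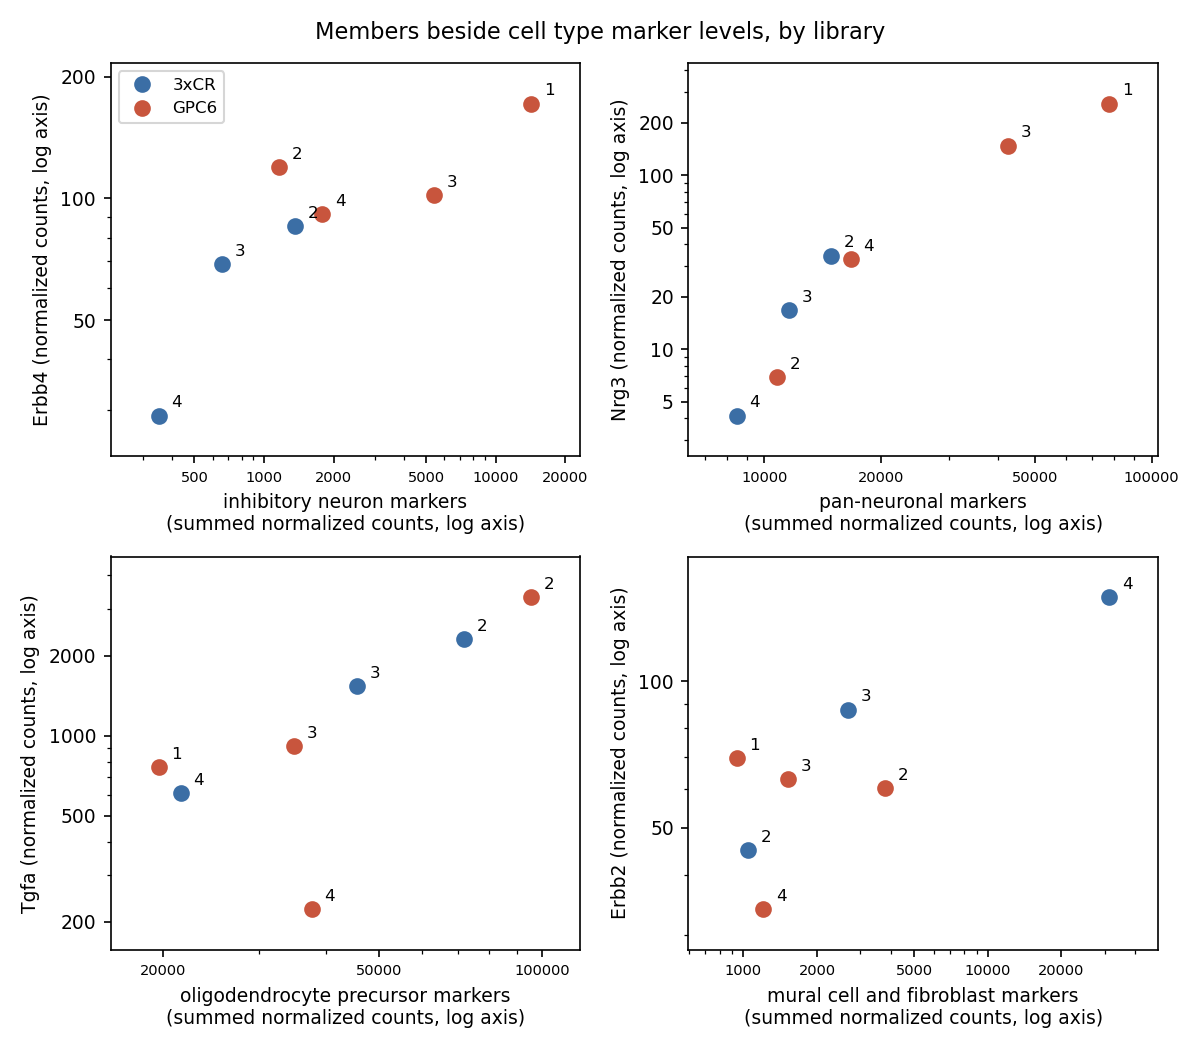
A member (vertical axes, normalized counts) against the summed normalized counts of a marker list (horizontal axes), both on log axes, 1 point per library with its replicate number, 3xCR in blue and GPC6 in red. Nrg3 is highest in GPC6 replicates 1 and 3, the libraries of highest pan-neuronal sum, and Tgfa is highest in GPC6 replicate 2, the library of highest oligodendrocyte precursor sum.

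Nrg2 on chromosome 18 (36017652 to 36197380), a neuregulin with expression in the nervous system, had 36.7, 18.6 and 19.3 normalized counts in the 3xCR libraries and 72.6, 28.7, 33.7 and 29.8 in the GPC6 tumors. GPC6 replicate 1 was highest, as for Nrg3 and Erbb4, and 3xCR replicate 2 lay above the other GPC6 libraries. Its log2 fold change was 0.66 (standard error 0.50, 95% interval -0.49 to 1.82, limma adjusted p = 0.738), with 0.36 without GPC6 replicate 1 and 0.97 without 3xCR replicate 2. Nrg1, on chromosome 8 (31814551 to 32884029), encodes the neuregulin of many isoforms that ERBB3 and ERBB4 bind. It had 45.5, 70.7 and 59.4 normalized counts in the 3xCR libraries and 23.2, 45.4, 55.0 and 73.0 in the GPC6 tumors. GPC6 replicate 1 was lowest and the groups overlapped. Its log2 fold change was -0.34 (standard error 0.46, 95% interval -1.40 to 0.73, limma adjusted p = 0.838). Without GPC6 replicate 1 it was -0.021 (unadjusted p = 0.955 by limma), and without GPC6 replicate 4 it was -0.56.

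Calls among the members changed with single libraries and with the test. Without 3xCR replicate 2 the groups did not overlap in 4 of the 9 members, Erbb4 and Nrg2 with GPC6 higher and Erbb2 and Hbegf with GPC6 lower, where 20.9% of all genes had groups apart. Without GPC6 replicate 2 they did not overlap in 2, Erbb4 (higher) and Erbb3 (lower), with 16.1% over all genes. In that comparison limma gave 2 members at an unadjusted p under 0.05, Erbb3 and Nrg3, and 9.45% of all genes. On the recovered reads, DESeq2 found 2 members at an unadjusted p under 0.05, Erbb4 and Nrg3 (9.77% of all genes), whereas edgeR (quasi-likelihood) gave 0 (6.70%), as did voom (3.38%). None of these 3 called a member at an adjusted p under 0.05. Over all genes edgeR and voom called 0 at that level (smallest adjusted p 0.603 and 0.837), and DESeq2 called 4 (smallest 0.0023).

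Ordered by mean level per kilobase in 3xCR tumors, the members ran Tgfa (229 ± 131, SD, n = 3), Hbegf (126 ± 26.3), Erbb3 (60.8 ± 28.1), Erbb2 (18.01 ± 10.1), Egfr (14.7 ± 4.78), Nrg2 (7.93 ± 3.27), Nrg1 (5.65 ± 1.22), Erbb4 (4.95 ± 2.35) and Nrg3 (2.71 ± 2.24 normalized counts per kilobase). The ranges of neighbours were apart only between Hbegf and Erbb3 and between Erbb3 and Erbb2. In GPC6 tumors the order was Tgfa (201 ± 212, SD, n = 4), Hbegf (92.6 ± 37.6), Erbb3 (45.3 ± 38.0), Egfr (26.4 ± 18.9), Nrg3 (16.4 ± 16.9), Nrg2 (13.1 ± 6.71), Erbb2 (10.9 ± 3.00), Erbb4 (9.81 ± 2.88) and Nrg1 (4.75 ± 2.01). There only Erbb4 and Nrg1 had ranges apart. Tgfa and Hbegf headed the order in both groups, and Nrg3 was last in 3xCR tumors.

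The 6 other ligands of the family were scarce. Egf and Btc, which encode EGF and betacellulin, averaged 21.6 and 11.8 normalized counts over the 7 libraries, with log2 fold changes of -0.10 for Egf (standard error 0.48, adjusted p = 0.960 by limma) and -0.94 for Btc (standard error 0.61, adjusted p = 0.730). Nrg4, Areg, Ereg and Epgn did not reach a mean of 10 and were not tested. Ereg, which encodes epiregulin, had 27.6 normalized counts in 3xCR replicate 4 and 15.8 in GPC6 replicate 2, and 0 reads in GPC6 replicates 1 and 4, where a count of 0 allows 4.64 and 3.09. Together the 6 took at most 6.88% of the summed ligand level per kilobase, in 3xCR replicate 4.

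In the pathway around the receptors, limma called 0 genes of the pathway lists at an adjusted p under 0.05, and edgeR, DESeq2 and voom each called 0. Over all genes limma, edgeR and voom called 0 at that level, and DESeq2 called 4. At an unadjusted p under 0.05 limma, edgeR and voom called 1 gene of these lists, Egr1, against 4.66%, 6.70% and 3.38% of all genes, and DESeq2 called Egr1 and Lrig2, against 9.77%. Of 8 genes that act on the release of ligands (proteases, the rhomboid proteins and Timp3), 7 had a lower mean log2 value in GPC6 tumors and 0 passed an unadjusted p of 0.05, with a median log2 fold change of -0.66. Here Bace2 had -0.93, Timp3, an inhibitor of the shedding protease ADAM17, had -0.20, and Bace1, the protease that cleaves NRG1, had 0.24. Of 11 genes listed as inhibitors of the receptors, 7 were higher and 4 lower with a median of 0.024, and 0 passed an unadjusted p of 0.05 by limma. The listing does not show that each of them, Lrig2 included, restrains these receptors here. Lrig1, a negative regulator of EGFR, had 0.0041, and Lrig2 and the phosphatase Ptpn1 had 0.44 and -0.33. The groups of 1 of the 11, Lrig2, did not overlap (GPC6 higher, as in 2.80% of all genes), with 195 ± 8.60 normalized counts (SD, n = 3) in 3xCR and 268 ± 44.4 (SD, n = 4) in GPC6 tumors.

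Of 15 adaptors 14 were in the table under the symbol used, 6 higher and 8 lower (median log2 fold change -0.054), and 0 passed an unadjusted p of 0.05. The phosphatase Ptpn11 had -0.036, the adaptor Shc1 had -0.82, and Grb7, which binds ERBB2, had 1.15 from a mean of 6.13 normalized counts in 3xCR tumors. The groups of 2 adaptors did not overlap, Vav2 and Vav3, both lower in GPC6 tumors (log2 fold changes -0.56 and -0.42), where 3.52% of all genes had groups apart in that direction. Both were chosen after their values were seen. Of 13 genes induced by MAPK signaling that were tested, 3 were higher and 10 lower (median -0.23), with Spred1 at -0.039 and Etv4 at -0.73. Egr1, an immediate early gene that neuronal activity also induces, was the 1 gene of this list at an unadjusted p under 0.05. Its values were 540.4, 486 and 477 normalized counts in the 3xCR libraries and 1914, 1159, 1465 and 570.0 in the GPC6 tumors, with a log2 fold change of 1.22 (SE 0.39, limma unadjusted p = 0.014, adjusted p = 0.730). With library weights, 1 of the 13 MAPK genes (Egr1), 1 of the 14 adaptors (Grb7) and 1 of the 2 other ligands tested (Btc) reached an adjusted p under 0.05. That fit called 13.3% of all genes, so nothing is read from these calls.

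Across the 7 libraries, the genes whose log2 values followed each member most closely were picked by Pearson's r, so a high r is what chose them and no p is given. All share the libraries, their groups and their depth. The 3 genes most like Nrg3 were Napb, Dnajc6 and Pnoc (r of 0.996, 0.996 and 0.995), of which Napb and Dnajc6 encode proteins of the synaptic vesicle cycle and Pnoc a neuropeptide precursor. Those most like Erbb4 were Cttnbp2, Ube3b and Tsc2 (0.998, 0.991 and 0.989), and those most like Nrg2 were Pcmtd2, Pdzd7 and Zfp949 (0.991, 0.991 and 0.988). Nrg1 was followed by Hk3, a hexokinase of myeloid cells, L3hypdh and Ifi47, an interferon-induced GTPase (0.998, 0.992 and 0.992). Erbb2 was followed by Postn, a matrix protein, Fgf2 and Amotl1 (0.984, 0.975 and 0.972), and Postn had 4217 normalized counts in 3xCR replicate 4, the library of highest Erbb2, against 38.1 to 698 elsewhere.

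Tgfa was followed by Col11a2, Mira and Slc14a1 (r of 0.993, 0.992 and 0.984), and Hbegf by Sbno2, Lpcat2 and Smtn (0.987, 0.985 and 0.984). Erbb3 was followed by Rnf20, Stard13 and Atf7 (0.978, 0.961 and 0.959). The lowest leading r was that of Egfr, with 4930520O04Rik, Prdm4 and Tnn at 0.972, 0.967 and 0.965, of which Tnn encodes the matrix protein tenascin-W. Tnn had 69.2 and 51.4 normalized counts in GPC6 replicates 3 and 4, the libraries of highest Egfr, and 0.99 to 29.0 in the other 5.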

How the data were processed

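Bulk RNA-Seq libraries of 3 3xCR and 4 GPC6 tumors were compared, grouped by the sample labels. By the submitters' processing notes, the authors aligned reads to mm10 with STAR 2.5.0a, counted them per gene and divided the counts by a DESeq2 1.20.0 size factor per library, and the deposited values are this normalized signal, with no correction for length. All 7 columns were used. Of 19282 entries, 25 carried names turned into dates and were left out. Whole reads were recovered (100% of values within 0.01 of a whole number). How reads that fit several genes were counted is not stated, and 6 members (Egfr, Erbb2, Nrg1, Nrg2, Nrg3 and Tgfa) overlap annotated genes on the other strand and Erbb3, Erbb4 and Nrg3 on the same strand (8 genes within Erbb4), so reads could be shared. The library kit was stranded, but whether counting used strand is not stated.

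Differences were tested with limma 3.58.1 (R 4.3.3) and a mean-variance trend on log2(normalized count + 1), two-sided, with Benjamini-Hochberg adjustment over 14782 genes with a mean of at least 10. Fold changes on this scale understate those of low genes. A count test was not used as the main one because values were deposited after normalization. Alternatives were edgeR 4.0.16 (quasi-likelihood), DESeq2 1.42.0 and voom on recovered reads, library weights, pseudocounts of 0.5 and 5, no filter or a mean of 50, equal totals or upper quartiles, a replicate block and leaving out each library. Limma and the 3 count methods were tested on simulated data. The simulation gave every gene the same spread beyond counting error and no difference in tissue make-up, so it does not show how they perform on these libraries. A count of 0 was taken to allow 3 reads, counting error only. Levels per kilobase used the union of GENCODE M21 exons, which counts every isoform and so understates genes with many. Single values were compared by two-sided exact permutation tests. The p-values set the group differences against the spread between these libraries. The labels do not say whether replicates share a litter or day, and if they do, that spread may understate the one between independent tumors. The members and gene lists were chosen with earlier results of these data known. Named were all members, the other ligands, from each other pathway list the most abundant gene and the extremes of the fold change, and the 3 genes of highest r with each member. One target of the guides is not reported here.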

Additional observations from a re-analysis of the deposited data

Results flagged for a closer look

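Among the 4 GPC6 libraries, the highest or lowest was singled out when its distance from the next, as a share of the range of the 4, exceeded Dixon's 95% critical value. Of 28 quantities examined, which share libraries and genes and of which chance picks about 1 in 20, 2 met this. Erbb3 had 615 normalized counts in GPC6 replicate 2, while the remaining GPC6 tumors had 147 to 169.8 and 3xCR tumors 255 to 560.0. The score of 15 markers of proliferating cells (the mean over the genes of the log2 value minus its mean over the 7 libraries) was -2.94 in GPC6 replicate 1, while the remaining GPC6 tumors had 0.34 to 1.01 and 3xCR tumors -0.10 to 0.98. GPC6 replicate 1 also had the highest Erbb4, Nrg2 and Nrg3 and the lowest Nrg1 and Hbegf of the 7. No explanation was tested for either value.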

How the results depend on the processing

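The number of members at an adjusted p under 0.05 was 0 in the main test and under every alternative except library weights, which gave 2. Over all genes, only DESeq2 (4 genes) and library weights (13.3%) called any at that level. At an unadjusted p under 0.05 the 1 member of the main test became 0 with edgeR, voom, no filter on low values, equal upper quartiles or the replicate block, 2 with DESeq2 and 5 with library weights (34.5% of all genes there), and ranged from 0 to 2 with each library left out. The number of members with groups apart ranged from 1 to 4 with each library left out. The direction of 8 members was the same under all alternatives in which they were tested, but their log2 fold changes were not stable in size: 0.088 to 1.10 for Egfr, -1.05 to -0.19 for Erbb2, -1.58 to -0.27 for Erbb3, 0.61 to 1.37 for Erbb4, -0.56 to -0.021 for Nrg1, 0.36 to 0.97 for Nrg2, 1.18 to 2.89 for Nrg3 and -0.72 to -0.21 for Hbegf. That of Tgfa turned once, to 0.034 without GPC6 replicate 4, within a range of -1.26 (without GPC6 replicate 2) to 0.034. The cause of these changes was not tested. For libraries that share the number 2, 3 or 4, the correlations of their deviations from the group means were -0.19, 0.12 and 0.30. Those of libraries with different numbers ran from -0.46 to 0.50. So few libraries cannot show whether a shared number means a shared litter or day, and the block result is that of a shared number only. The block has no partner for GPC6 replicate 1, so its log2 fold changes are those without that library (0.60 for Egfr in both). A scaling to equal totals or upper quartiles moved the median of all genes to 0.028 or -0.071. Depth limits Nrg3 most, whose smallest value was 3 reads.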
